A study of Danio rerio with 25 samples.

Results

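The 17 *dmd* mutant libraries analysed fall into 2 sets of unlike clock gene state, which are described here next to the 7 WT sibling libraries of the same series (24 libraries in all). Set A holds 10 libraries, *dmd* mutant controls 1 to 5 and *dmd* mutants with endurance neuromuscular electrical stimulation (eNMES) 2 to 6. Set B holds 7 libraries, controls 6 to 8 and eNMES 7 to 10. The sets were divided by the sign of the first principal component of the clock genes, so each set holds both treatments and neither is a group of the study. All 17 libraries came from whole larvae at 7 days post fertilisation (dpf), 2 larvae pooled per library, that carry the *sapje* (ta222a) *dmd* nonsense allele and were told from WT siblings by muscle birefringence. Treated larvae had sessions of eNMES at 2, 3 and 4 dpf. Before RNA extraction larvae were grouped by disease severity at onset and by their change in birefringence, and each library therefore mixes all tissues of a pair of larvae chosen for a similar course. The WT sibling libraries were likewise pools of 2 whole larvae at 7 dpf, from controls (n = 4) or larvae that had completed eNMES (n = 3). The question here is which rhythmic, metabolic and stress genes differ between B and A besides the clock genes, and whether the difference repeats in controls and in eNMES libraries.

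In animal cells a transcription feedback loop keeps time. CLOCK and BMAL proteins switch on the *per* and *cry* genes, whose products later repress them, and nuclear receptors of the REV-ERB and ROR families tune the loop. In zebrafish larvae nearly every tissue holds such a clock and can be set directly by light, so RNA from whole larvae carries the phase of many tissues, of eye photoreceptors and of the pineal gland. Clock output genes reach metabolism, hormone responses and protein folding, and many of them also answer to feeding, light or handling.

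Depth and library make-up gave the first comparison. Totals of estimated counts lay between 17242201 and 22808348 in set A and between 7957160 and 21943104 in set B, where eNMES replicate 8 was the lowest and the other 6 B libraries started at 17890166. Exact permutation tests (two-sided, 19448 splits, Benjamini-Hochberg over 4 measures) gave p = 0.253 for total counts (adjusted p = 0.407), p = 0.524 for genes with at least 1 count (adjusted p = 0.524), p = 0.305 for the percent of detected genes whose estimated count is not whole (adjusted p = 0.407) and p = 0.0633 for the fragment length implied by the tables (adjusted p = 0.253). The fragment length was 364.5 ± 7.41 bases (SD, n = 10) in A and 352.6 ± 16.9 (SD, n = 7) in B. In controls alone it was 24.6 bases shorter in B (exact permutation p = 0.0357), and in eNMES libraries the difference was -2.66 bases (exact permutation p = 0.627). Leaving out control 2, eNMES 7 or eNMES 9 gave an unadjusted exact permutation p of 0.0296, 0.00762 or 0.0321 over all libraries. *dmd* itself, the gene that carries the mutation, lay between 1007 and 1323 normalized counts in A and between 1054 and 1434 in B, below all 7 WT sibling libraries (2586 to 5391), and no library went against its genotype label. Of 12 marker lists for tissues and cell types, from fast muscle to liver, lens and erythroid cells, all 12 had summed levels that overlapped between the sets. None of their genes kept for testing was at 0 in all *dmd* mutant libraries, and genes dropped by the count filter were not looked at. For fast muscle the sum was 2172830 to 2805520 in A and 2213730 to 2598200 in B.

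The order of the records in the deposit follows the sets. All 10 A records come before all 7 B records. Within A, eNMES 2 and 3 with controls 1 to 3 come first, and eNMES 4 to 6 with controls 4 and 5 second. Within B, eNMES 10 and control 8 stand after the WT sibling records and the other 5 before them. Neither labels nor tables say what this order stands for, and several results below follow it.

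The clock genes made the sets, and their values are given only to show what was divided. On component 1 of 44 clock genes, fitted over all 24 libraries, the A library nearest to 0 was control 5, at -0.81. The nearest B library was eNMES 8, at 1.91. Scores in A came in 2 separate clusters, from -2.87 to -2.31 in the 5 libraries that are first in the records and from -1.25 to -0.81 in the other 5. *PER2* (the period gene induced by light in zebrafish) lay between 506.8 and 1179 normalized counts in A and between 1739 and 3893 in B, a difference of 1.85 (SE 0.17) on the log2 scale. Counts were normalized by edgeR's TMM factors and brought to a common library size, and all differences between sets are log2 fold changes of B over A from the fit with eNMES as a term. The REV-ERB genes *nr1d4b* and *nr1d4a*, which encode repressors of *bmal* genes, were higher in B by 1.35 (SE 0.14) and 1.17 (SE 0.14). The same direction held for the repressors *nfil3-5* (1.47, SE 0.14) and *cry3b* (1.03, SE 0.17), for the activator *HLF* (1.14, SE 0.10), for *bmal2* and *npas2* (1.06, SE 0.15, and 0.93, SE 0.13), for *CRY1* (ENSDARG00000045768; 0.93, SE 0.09) and for the receptor gene *rorcb* (0.81, SE 0.07). *PER3* was at -0.38 (SE 0.08) with overlapping libraries. Symbols are those of the reference table, which gives many zebrafish genes a human symbol in capitals, and the Ensembl identifier is added where a pair of genes shares one.

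A gene is called set apart below if every B library lies outside the range of the A libraries of its own treatment, on the same side in controls and in eNMES, and if its fitted difference is over 0.6 in size. For such a gene, libraries of unlike treatment may still overlap between the sets. The definition held for 206 of 25832 genes tested (0.797%), 158 higher in B (0.612%) and 48 lower (0.186%). Since the sets were drawn from these libraries, the count is a description with no test. The share of 0.797% is the background for the list counts below, and a list without genes set apart is not read as a result. Without the clock list there were 196 of 25787 genes (0.76%). At any fold change, 692 genes (2.68%) did not overlap on the same side in both treatments, and 4 genes (0.0155%) did so on opposite sides. By comparison, 2594 genes (10%) did not overlap in controls alone and 1583 (6.13%) in eNMES alone. The thresholds of the study, an adjusted p under 0.1 and a log2 fold change over 0.6 in size, were passed by 591 genes (2.29%), 389 higher (1.51%) and 202 lower (0.782%), in edgeR's quasi-likelihood fit. That number is given as a count only, for the same reason.

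**Figure D1:**
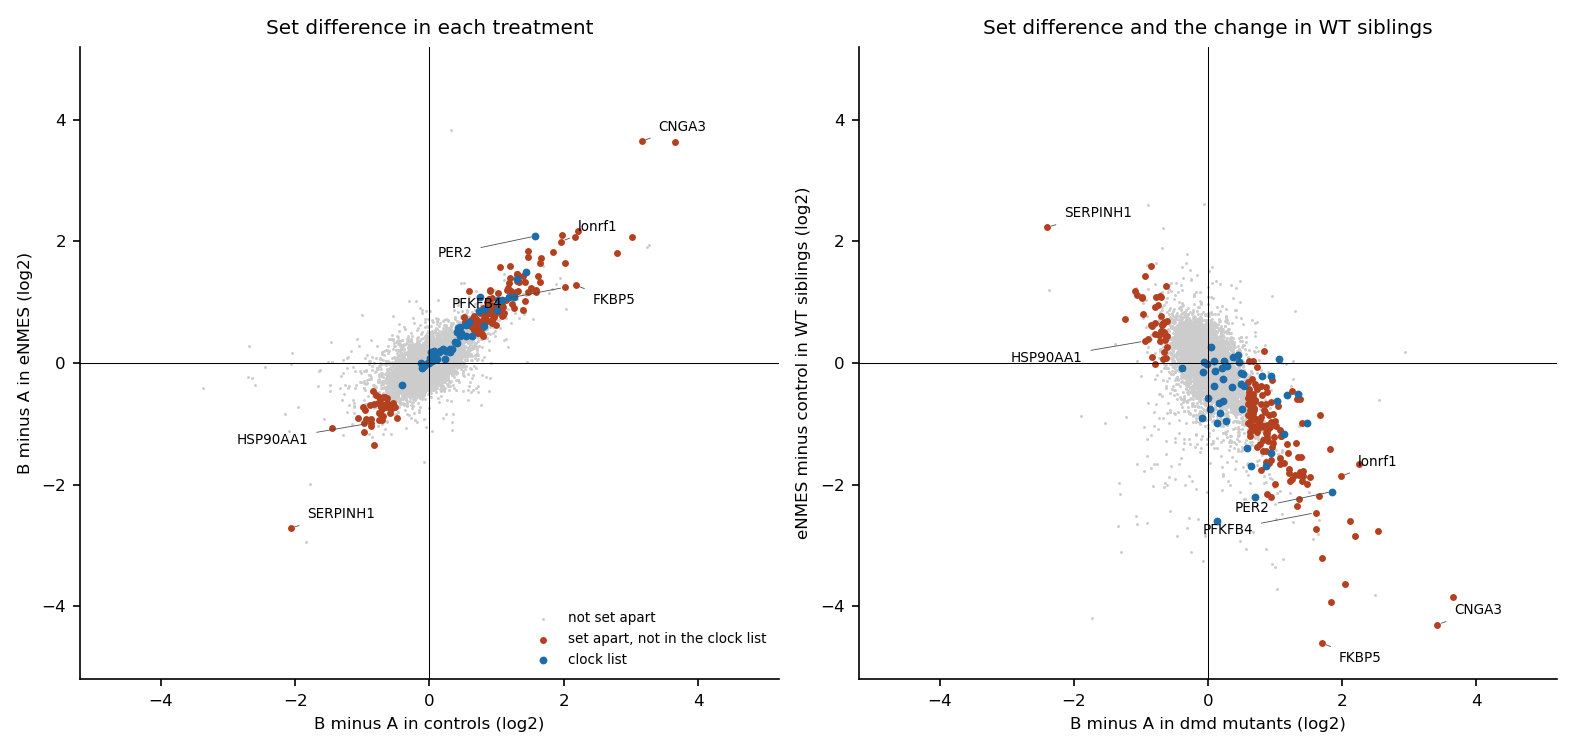
Log2 fold changes of genes averaging 50 or more normalized counts in either set. Left, B minus A in controls (x axis) and in eNMES libraries (y axis) of *dmd* mutants. Right, B minus A over both treatments (x axis) and eNMES minus control in WT siblings (y axis). Grey points are genes not set apart, red points genes set apart that are not in the clock list, blue points clock genes. Red points lie along the diagonal on the left, and most lie in the opposite quadrants on the right, with *SERPINH1* at -2.39 and 2.24.

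The difference between the sets repeated across treatments, which share no library. Of 25832 genes tested, the 4-group fit gave 390 past both thresholds in controls, 274 higher in B and 116 lower. In eNMES libraries it gave 341, 233 higher and 108 lower. Shared between these lists were 200 genes, which are 51.3% of the first and 58.7% of the second. Of the genes past the thresholds in controls, 96.4% had the same sign in eNMES libraries, and of those past them in eNMES libraries 97.4% had the same sign in controls. For the 21531 genes averaging 10 counts or more, the fold changes had a Pearson correlation of 0.488 and the same sign in 69.3%, and without the clock list the correlation was 0.483. These values are across genes, which are not independent, and they carry no p. The sets were drawn from the libraries of both treatments, so the counts and shares are description only. Without control replicate 6 the count in controls was 247.

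Several genes of cone photoreceptors were set apart. *CNGA3* (ENSDARG00000012297), which encodes a subunit of the cone channel gated by cyclic GMP, had a lowest, median and highest value of 11.99, 18.7 and 31.8 normalized counts in A and of 139.5, 221.3 and 290.5 in B. No library of B came near the A range, and the fitted difference was 3.42 (SE 0.18), with 3.16 (SE 0.24) in controls and 3.65 (SE 0.24) in eNMES libraries. No other tested gene with the symbol *CNGA3* was set apart. *ankrd33ab* had 0.968 to 12.6 in A and 71.4 to 95.1 in B, a difference of 3.65 (SE 0.22). The cone arrestin gene *ARR3* (ENSDARG00000098475) lay between 287.2 and 540.1 in A and between 1267 and 1982 in B (2.19, SE 0.12), and its second copy (ENSDARG00000056511) between 1133 and 1936 and between 3205 and 6154 (1.48, SE 0.14). The product of *GRK7* phosphorylates cone opsins after light. Its copy ENSDARG00000020602 ran from 364.0 to 826.4 in A and from 1469 to 2590 in B (2.04, SE 0.15). The other copy, ENSDARG00000055534, went the other way at low counts, from 19.4 to 49.5 in A and from 11.7 to 30.98 in B, with overlap (-0.93, SE 0.22). In a mixture of whole larvae, fewer cells of a type and less RNA per cell cannot be told apart.

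Further genes, many of them known from photoreceptors, were higher in B. Most are outside the lists and were named after their values were seen. Proteins of the *guca1* group activate the guanylate cyclase that remakes cyclic GMP. *guca1c* was higher in B by 1.83 (SE 0.22), *guca1aa* by 1.91 (SE 0.29), *guca1g* by 1.69 (SE 0.21) and *GUCA1A* (ENSDARG00000100747) by 1.49 (SE 0.20). No other tested gene with the symbol *GUCA1A* was set apart. For *guca1aa* this rests on few counts, 2.92 to 31.8 in A and 26.2 to 77.4 in B, and control 3 of A was above eNMES 8 of B. *gucy2d*, a guanylate cyclase gene, lay between 338.9 and 654.4 in A and 718.3 and 1484 in B (1.08, SE 0.15). The sodium, calcium and potassium exchanger gene *slc24a2* lay between 583.9 and 880.7 in A and 1328 and 1819 in B, a difference of 1.17 (SE 0.10) in controls and 1.24 (SE 0.09) in eNMES libraries. *RCVRN* (ENSDARG00000009637), which encodes the calcium sensor recoverin, was higher by 0.78 (SE 0.12), *lratb.2*, a retinol acyltransferase gene, by 2.25 (SE 0.21), and the transcription factor genes *six7*, *SAMD7* and *SIX6* (ENSDARG00000031316) by 1.33 (SE 0.19), 1.36 (SE 0.18) and 1.09 (SE 0.08). *ppm1na* and *si:dkey-224j12.3* were higher by 1.62 (SE 0.12) and 2.12 (SE 0.10), and no cell type is given here for the latter or for *lratb.2*. *aanat2*, whose product makes melatonin in the pineal gland, overlapped between the sets, with 29.0 to 91.2 in A and 82.4 to 201.6 in B (1.24, SE 0.21).

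Other photoreceptor genes were lower in B. *FSCN2* (ENSDARG00000074396), a gene for an actin bundling protein of photoreceptors, was between 173.1 and 244.0 in A and between 96.5 and 123.9 in B (-0.79, SE 0.08). *PDC* (ENSDARG00000011886), the phosducin gene, was at -0.78 (SE 0.11) and *IMPDH1* (ENSDARG00000042336), an enzyme gene of GTP synthesis, at -0.65 (SE 0.08). Of 56 genes of the pineal and phototransduction list 6 were set apart, all higher in B, beside 0.797% of all genes, and 9 were past the thresholds higher and 1 lower, beside 2.29% of all genes. The median of the list was 0.05, beside -0.0034 over all genes tested. Its summed level, 61898 to 78023 in A and 60355 to 78111 in B, did not separate the sets.

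**Figure D2:**
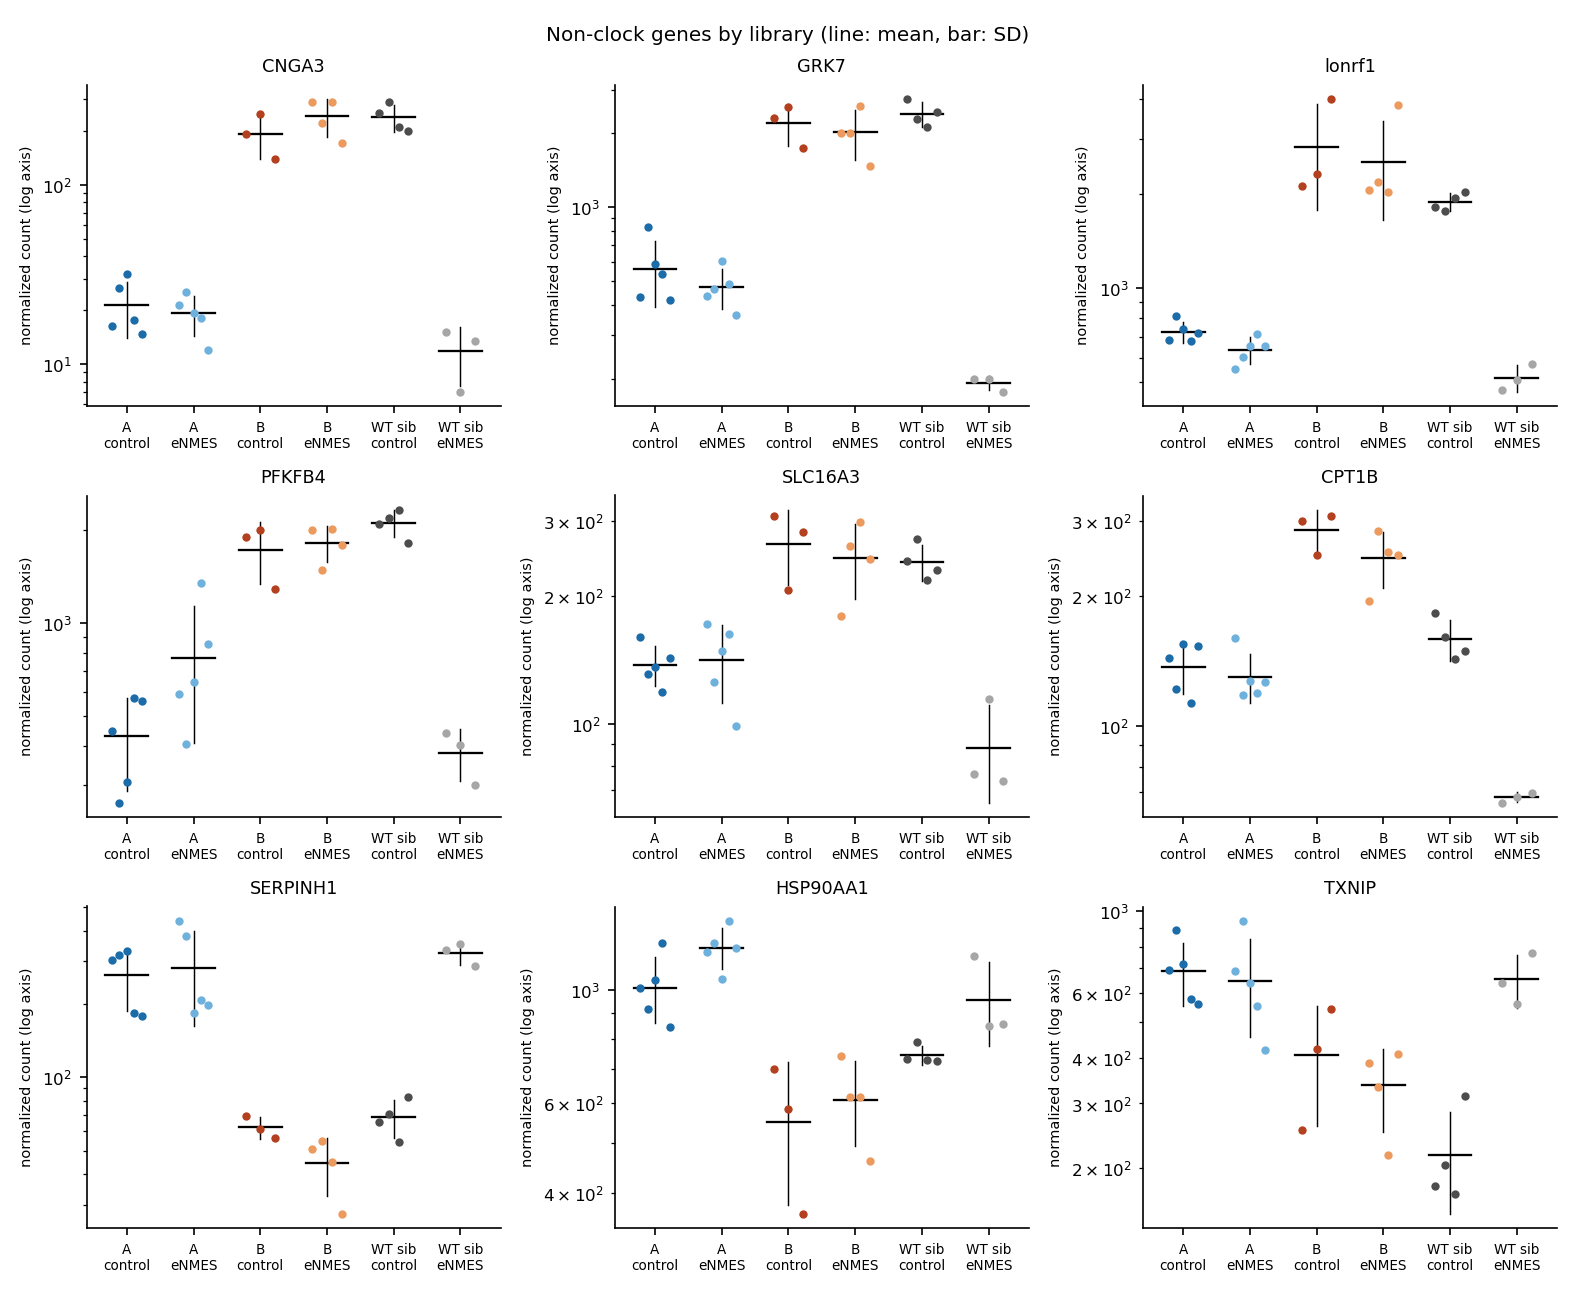
Normalized counts (log axis) of 9 genes outside the clock list in each library, by set and treatment and in WT siblings. Points are libraries, lines are means and bars are SD. *CNGA3* lies between 11.99 and 31.8 in all 10 A libraries and between 139.5 and 290.5 in all 7 B libraries, and *SERPINH1* between 178.9 and 437.5 and between 27.6 and 69.4. WT sibling controls lie within or near the range of set B except in *CPT1B*, where 3 of 4 are within 143.0 to 160.7 and near set A.

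Among clock output genes, 3 of 29 tested were set apart, beside 0.797% of all genes, and the median of the list was 0.14. *lonrf1*, a RING finger gene induced by light in zebrafish, lay between 552.7 and 815.0 in A and between 2031 and 4008 in B (1.98, SE 0.15). *WEE1*, whose product holds back entry into mitosis, lay between 90.1 and 178.3 in A and between 185.6 and 294.3 in B (0.85, SE 0.11), and *usp2b*, a deubiquitinase gene, was higher by 0.79 (SE 0.13). For *usp2b*, eNMES 5 of A, at 196.8, was above control 8 of B, at 186.3. *klf13*, a Krüppel-like factor gene outside the lists, had 144.0 to 273.9 in A and 405.2 to 721.2 in B (1.52, SE 0.11). The stress-inducible gene *GADD45B* (ENSDARG00000027744), which the list also holds, was lower at -0.85 (SE 0.29) with overlap. The summed level of the list was 41591 to 49034 in A and 53632 to 58385 in B and did not overlap.

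A pair of libraries within B stood apart in several genes, of which some are induced by light and others are not known here for that. *PER2* was at 3893 in control 8 and 3651 in eNMES 10, and between 1739 and 2494 in the other 5 B libraries. *lonrf1* was at 4008 and 3848 in the same pair, and between 2031 and 2320 in the other 5. The photolyase gene *cry5*, which repairs ultraviolet damage, was at 425.3 and 381.8, against 180.8 to 229.8 in the other 5. *XPC* and *ERCC6*, genes of nucleotide excision repair, followed, with 408.1 and 291.6 against 155.9 to 211.3, and 815.1 and 789.6 against 407.7 to 511.9. In set A *cry5* had 118.2 to 200.3, *XPC* 141.7 to 236.0 and *ERCC6* 359.5 to 583.9, so in the other 5 B libraries the repair genes were at or near A levels. The clock genes *npas2* and *bmal2* were also higher in the pair. *npas2* was at 774.1 and 874.0 against 432.0 to 559.6, and *bmal2* at 466.3 and 417.8 against 187.0 to 262.6. The melatonin gene *aanat2* was at 201.6 and 158.8 against 82.4 to 98.3. The cone gene *six7* went the other way, with 780.7 and 835.5 in this pair and 1533 to 2084 in the other 5. What sets the pair apart was not tested. Control 8 and eNMES 10 are the pair that stands last in the records, and they were picked out here after their values were seen. Of 30 photolyase and repair genes tested none was set apart and the median was 0.01.

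Glucose and lactate genes differed in part. *PFKFB4* makes and removes fructose 2,6-bisphosphate, the signal that sets the pace of glycolysis. In controls it had 448.0, 262.8, 306.3, 573.0 and 560.9 normalized counts in A and 1898, 2004 and 1286 in B. In eNMES libraries it had 591.5, 407.4, 646.9, 1352 and 857.8 in A and 1994, 1485, 2015 and 1786 in B. B was higher in both treatments, by 2.02 (SE 0.34) and 1.25 (SE 0.31), although eNMES 5 of A was above control 8 of B. *SLC16A3* (ENSDARG00000045051), which encodes a lactate exporter, lay between 99.2 and 172.3 in A and between 179.6 and 307.6 in B (0.86, SE 0.12). No other gene of the 42 tested in the glycolysis list was set apart, and the list's median was -0.01. *TXNIP* (ENSDARG00000070000), a gene whose product curbs glucose uptake, was lower in B, with 418.5 to 940.2 in A and 216.8 to 543.8 in B (-0.85, SE 0.19), and the other copy (ENSDARG00000036107) was level at 0.05. *PCK1*, the gene of the first committed enzyme of gluconeogenesis, overlapped, with 4299 to 14560 in A and 11990 to 15090 in B (0.80, SE 0.20). Of 25 gluconeogenesis genes none was set apart, and *FOXO1* (ENSDARG00000099555; 0.62, SE 0.10) and *IGFBP1* (0.64, SE 0.22) overlapped between the sets. *hif1al*, a gene of the hypoxia-inducible factor family, lay between 1809 and 4718 in A and 4531 and 6247 in B (0.95, SE 0.14). It was the 1 gene set apart of 37 in the hypoxia list, beside 0.797% of all genes, and the list's median was 0.05. The summed level of that list was 36442 to 41207 in A and 42114 to 43879 in B and did not overlap. *hif1al* is part of that sum, with means of 2928 in A and 5698 in B, beside sums that averaged 38094 and 42947. Much of the separation is therefore its own, and it is not read as one of the whole list.

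Fat and sterol genes gave single members, too. *CPT1B*, which encodes the carnitine palmitoyltransferase that lets fatty acids into muscle mitochondria, lay between 112.9 and 159.7 in A and between 195.4 and 307.7 in B (0.98, SE 0.09). *UCP2*, an inner mitochondrial membrane carrier gene, was higher by 0.86 (SE 0.13), but eNMES 5 of A, at 3439, was above 3 of the B libraries. *LPIN1*, a phosphatidate phosphatase gene, was higher by 0.70 (SE 0.11), and *ldlrb*, an LDL receptor gene, by 1.01 (SE 0.12), with 129.8 to 234.3 in A and 252.2 to 448.7 in B. For *LPIN1*, eNMES 6 of A, at 12920, was above control 8 of B, at 11760. *PLIN2*, a lipid droplet gene, had 6.32 to 52.3 in A and 7.14 to 81.2 in B and overlapped (1.35, SE 0.38). *ELOVL1* (ENSDARG00000099960), a fatty acid elongase gene, and *EBP*, a gene of sterol synthesis, overlapped as well (0.89, SE 0.25, and 0.85, SE 0.14). *DGAT2*, which encodes the last enzyme of triglyceride synthesis, was at -0.47 (SE 0.08). Of 42 genes of fasting and fat oxidation 2 were set apart, beside 0.797% of all genes, and the median was -0.02. Of 28 genes of lipid synthesis 1 was set apart (median 0.05), and of 30 cholesterol genes 1 (median 0.12).

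Metabolic genes outside the lists were set apart as well, chosen here after their values were seen. *PNP* (ENSDARG00000078619), a purine salvage gene, lay between 1173 and 3650 in A and 4199 and 5180 in B, a difference of 1.42 (SE 0.27) in controls and 1.01 (SE 0.25) in eNMES libraries. *ODC1*, the gene of the enzyme that starts polyamine synthesis, lay between 140.4 and 378.4 in A and 398.0 and 529.8 in B (0.91, SE 0.16), and *SAT1* (ENSDARG00000095908), which encodes the enzyme that acetylates polyamines for export, was higher by 0.61 (SE 0.09). For *SAT1*, eNMES 5 of A, at 908.1, was above all controls of B, at 821.8 to 876.1. The transporter genes *SLC20A1* (ENSDARG00000010641; phosphate) and *SLC38A4* (amino acids) were higher by 0.89 (SE 0.09) and 0.92 (SE 0.09). *ESRRA*, a nuclear receptor gene of mitochondrial biogenesis, and *COQ10B*, a coenzyme Q gene, were higher by 0.71 (SE 0.11) and 0.77 (SE 0.14), *HSD17B12* by 0.87 (SE 0.10), and the kinase gene *SIK2* (ENSDARG00000062315) by 0.75 (SE 0.07). *creb3l3a*, a gene for a membrane-bound transcription factor of liver and gut, was lower at -0.64 (SE 0.10). From the lists, the autophagy kinase gene *ULK2* was higher by 0.78 (SE 0.15), the single gene set apart of 47 in the atrophy and autophagy list. For *ULK2*, eNMES 5 of A, at 3748, was above control 8 of B, at 2960. The cytochrome P450 gene *cyp2ad2* was lower at -0.84 (SE 0.14), with 1117 to 1852 in A and 570.5 to 1111 in B, the single gene set apart of 45 in the xenobiotic list.

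A few chaperone genes were lower in B. *SERPINH1* (ENSDARG00000019949), which encodes the collagen chaperone HSP47 of the endoplasmic reticulum, had 301.6, 316.3, 329.9, 183.4 and 178.9 normalized counts in A controls and 437.5, 381.1, 183.0, 207.3 and 198.4 in A eNMES libraries. It had 69.4, 61.6 and 56.4 in B controls and 50.7, 54.7, 44.9 and 27.6 in B eNMES libraries. Every B library was below every A library (-2.39, SE 0.25), and within A the 5 libraries first in the records, at 301.6 or more, were higher than the other 5. *HSP90AA1*, the inducible cytosolic HSP90 gene, lay between 845.0 and 1363 in A and between 364.1 and 742.6 in B (-0.94, SE 0.12). *dnaja1*, which encodes a cochaperone of HSP70, lay between 324.1 and 476.9 and between 151.2 and 248.9 (-0.90, SE 0.10). Of 43 heat shock genes these 3 were set apart, beside 0.797% of all genes, and the median of the list was -0.0025. No other tested gene with the symbol *SERPINH1* was set apart. Higher in B with overlapping libraries were the small heat shock protein genes *hspb6* (1.02, SE 0.20) and *hspb9* (0.70, SE 0.22) and the cochaperone gene *DNAJB5* (0.62, SE 0.17). The summed level of the list, 188811 to 209331 in A and 190773 to 202482 in B, was level. None of 40 genes of the unfolded protein response, 35 of the amino acid response and 41 of the proteasome passed the thresholds. Over all genes 2.29% passed, so such lists would hold few, and nothing is read from this.

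Several glucocorticoid target genes differed widely between libraries of A. *FKBP5*, a classical target of the glucocorticoid receptor, had 824.7, 138.1, 518.4, 81.1 and 185.4 normalized counts in the 5 A libraries first in the records (eNMES 2 and 3, controls 1 to 3). It had 2017, 3850, 3902, 2059 and 2015 in the other 5 (eNMES 4 to 6, controls 4 and 5), and 2114 to 6900 in B. It meets the definition of set apart (1.70, SE 0.65) because B is above A within each treatment, but B control 8, at 2114, was below eNMES 5 and 6 of A. *KLF9*, a further glucocorticoid target and clock output, had 399.8 to 1137 in the first 5 libraries, 2212 to 4418 in the other 5 of A and 2891 to 4412 in B. *tsc22d3* had 931.8 to 1217, 2239 to 2555 and 1942 to 2755 in the same order. Of 34 genes of the glucocorticoid list 2 were set apart, *FKBP5* and *zbtb16b* (0.65, SE 0.09), beside 0.797% of all genes. Past the thresholds the list held genes of both directions, 3 higher in B and 2 lower. *CEBPB*, also in the list, was lower at -0.73 (SE 0.26) with overlap and did not pass. The median of the list was 0.12, and *HSD11B2* and *hsd20b2*, genes of cortisol breakdown, overlapped (0.75, SE 0.20, and 0.63, SE 0.12).

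**Figure D3:**
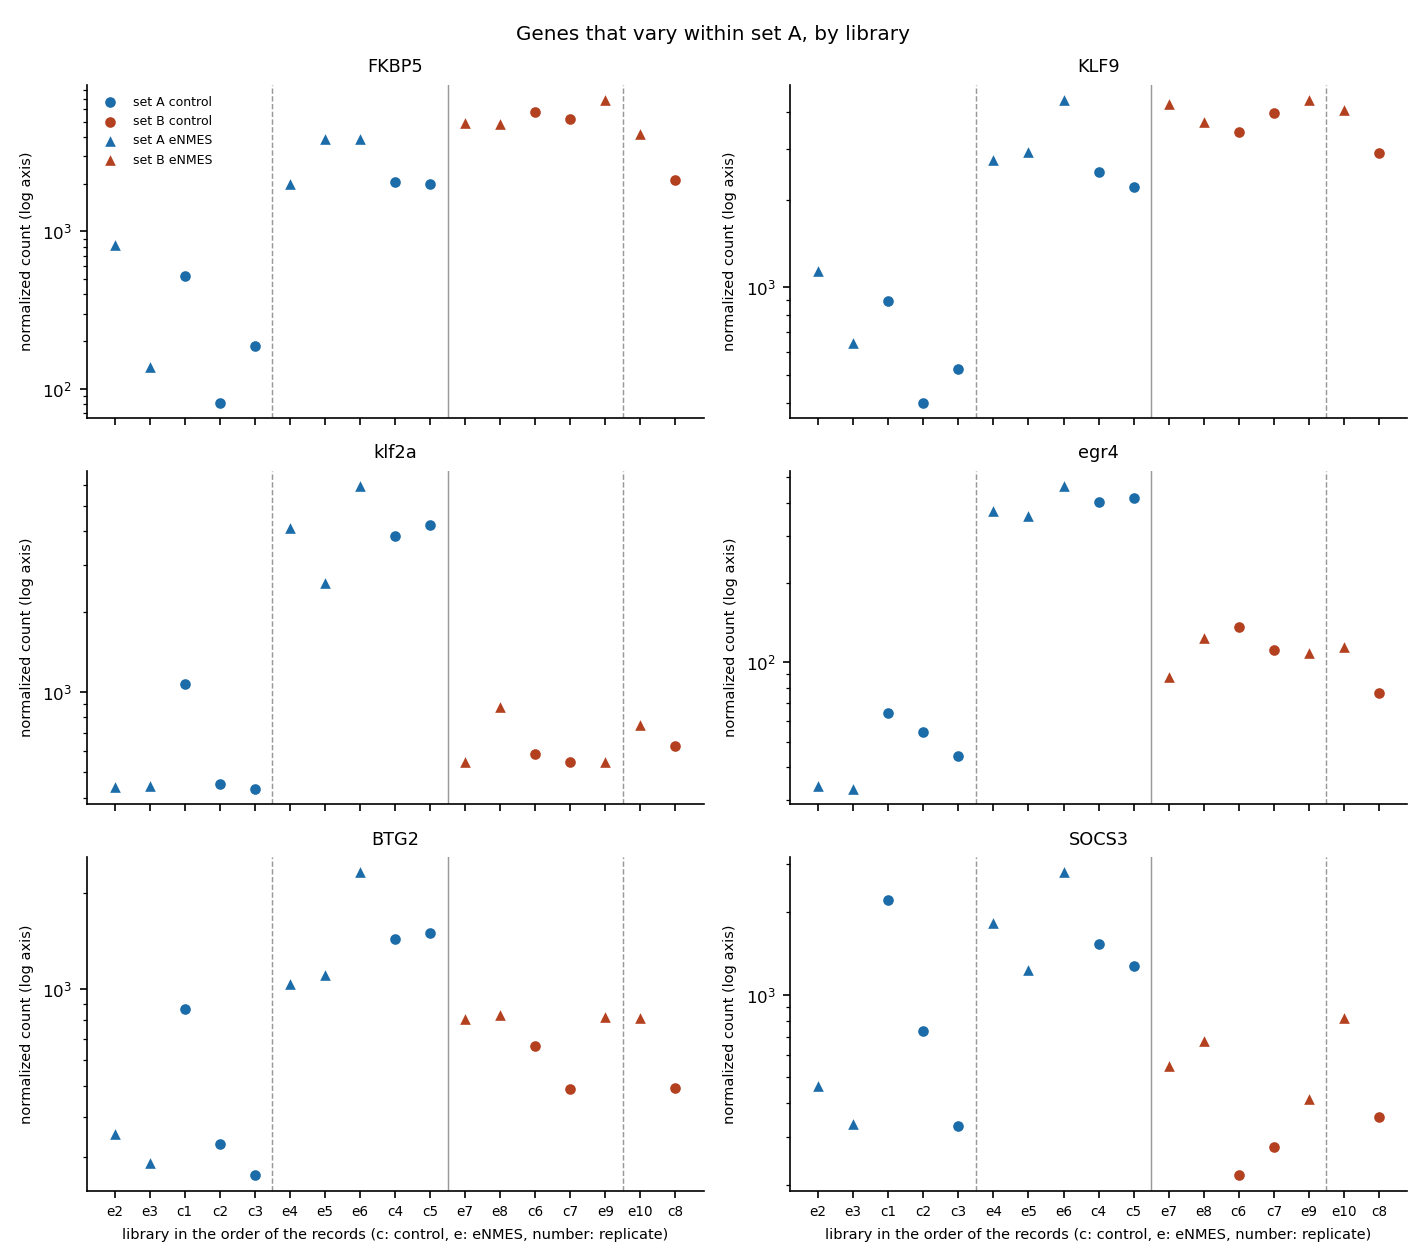
Normalized counts (log axis) of 6 genes in the 17 *dmd* mutant libraries, in the order of the records. Circles are controls and triangles eNMES, blue is set A and red set B, the solid line divides the sets and dashed lines divide the stretches of records within a set. *klf2a* lies between 2557 and 5930 in the second stretch of A and between 430.3 and 1068 in the first, and between 542.7 and 873.3 in B. *FKBP5* and *KLF9* are low only in the first stretch.

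A second group of genes was higher in eNMES 4 to 6 and controls 4 and 5 of A than in the other A libraries and in B. *klf2a*, a factor gene known for its response to blood flow, had 2557 to 5930 in these 5, 430.3 to 1068 in the other A libraries and 542.7 to 873.3 in B. *egr4*, *NPAS4* (ENSDARG00000055752) and *FOS* are induced within minutes by neuronal activity or growth factors. *egr4* had 358.5 to 464.3 in the 5, 33.1 to 64.1 in the other 5 and 76.5 to 135.6 in B. *NPAS4* had 1553 to 1979, 89.1 to 180.6 and 405.2 to 744.8, and *FOS* had 680.9 to 986.0, 84.2 to 488.6 and 176.8 to 390.2. *BTG2*, *mych* and *GADD45A* (ENSDARG00000104571) showed the same order of A stretches, with 1037 to 2314 against 262.3 to 864.3, 2212 to 4008 against 609.6 to 1169, and 649.3 to 1200 against 245.0 to 357.2. With this spread within A the fitted set differences of *klf2a* (-1.89) and *egr4* (-1.05) each had an SE of 0.63. These 5 libraries were recognised by their values, so they are described and not compared by a test. *SOCS3* (ENSDARG00000025428; -1.54, SE 0.48), a feedback gene of cytokine signalling, was high in them and also in control 1 of A, at 2216. Control 1 was likewise the highest of all *dmd* mutant libraries in the inflammatory genes *il1b*, at 1106, and *CEBPB*, at 2423.

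Some immediate-early genes did separate the sets. *fosaa* lay between 46.1 and 90.5 in A and between 107.0 and 189.0 in B, and *DUSP5*, a feedback phosphatase gene of ERK signalling, between 134.2 and 217.7 and between 263.8 and 402.1, a difference of 1.00 (SE 0.11). *NR4A3*, an orphan receptor gene, overlapped (1.18, SE 0.23), with 257.3 and 306.8 in eNMES 10 and control 8 of B and 388.8 to 841.8 in the other 5. *KLF4* and *egr2a* overlapped, too (0.70, SE 0.22, and -0.88, SE 0.28). Of 47 genes of the list 2 were set apart, beside 0.797% of all genes, and the median was -0.17. The summed level of the list was between 24711 and 29467 in 4 of the first 5 A libraries and 41905 in control 1, between 40942 and 50740 in the second 5, and between 28755 and 33741 in B.

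Other genes lower in B, outside the lists and named after their values were seen, have varied roles. *clk4a*, which encodes a kinase of SR splicing proteins, lay between 2995 and 3546 in A and between 1839 and 2225 in B (-0.69, SE 0.05). *safb*, a gene for an RNA-binding nuclear scaffold protein, lay between 2385 and 3081 and between 1461 and 1923 (-0.61, SE 0.06). *ints6*, an Integrator complex gene, and *ANKLE2* were lower at -0.60 (SE 0.08) and -0.69 (SE 0.07). *DDX5*, an RNA helicase gene, was higher by 0.63 (SE 0.10). Among the lowest by size were also *si:dkey-105h11.2* (-1.24, SE 0.29), *nkpd1* (-1.09, SE 0.17), *GBGT1* (ENSDARG00000019207; -1.06, SE 0.14), *zmat1* (-0.98, SE 0.12), *si:dkey-239i20.4* (-0.96, SE 0.11), *PPP1R27* (-0.94, SE 0.12) and *si:ch211-114c17.1* (-0.86, SE 0.16). For *si:dkey-105h11.2*, control 7 of B was at 3.08, against 40.1 to 75.8 in the other B libraries and 88.5 to 143.3 in A. Among the highest were also *si:ch73-6k14.2* (2.54, SE 0.25), with 11.4 to 30.8 in A and 52.8 to 209.3 in B, and *zgc:162608* (1.82, SE 0.35), with 38.8 to 244.4 and 241.4 to 838.9.

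**Figure D4:**
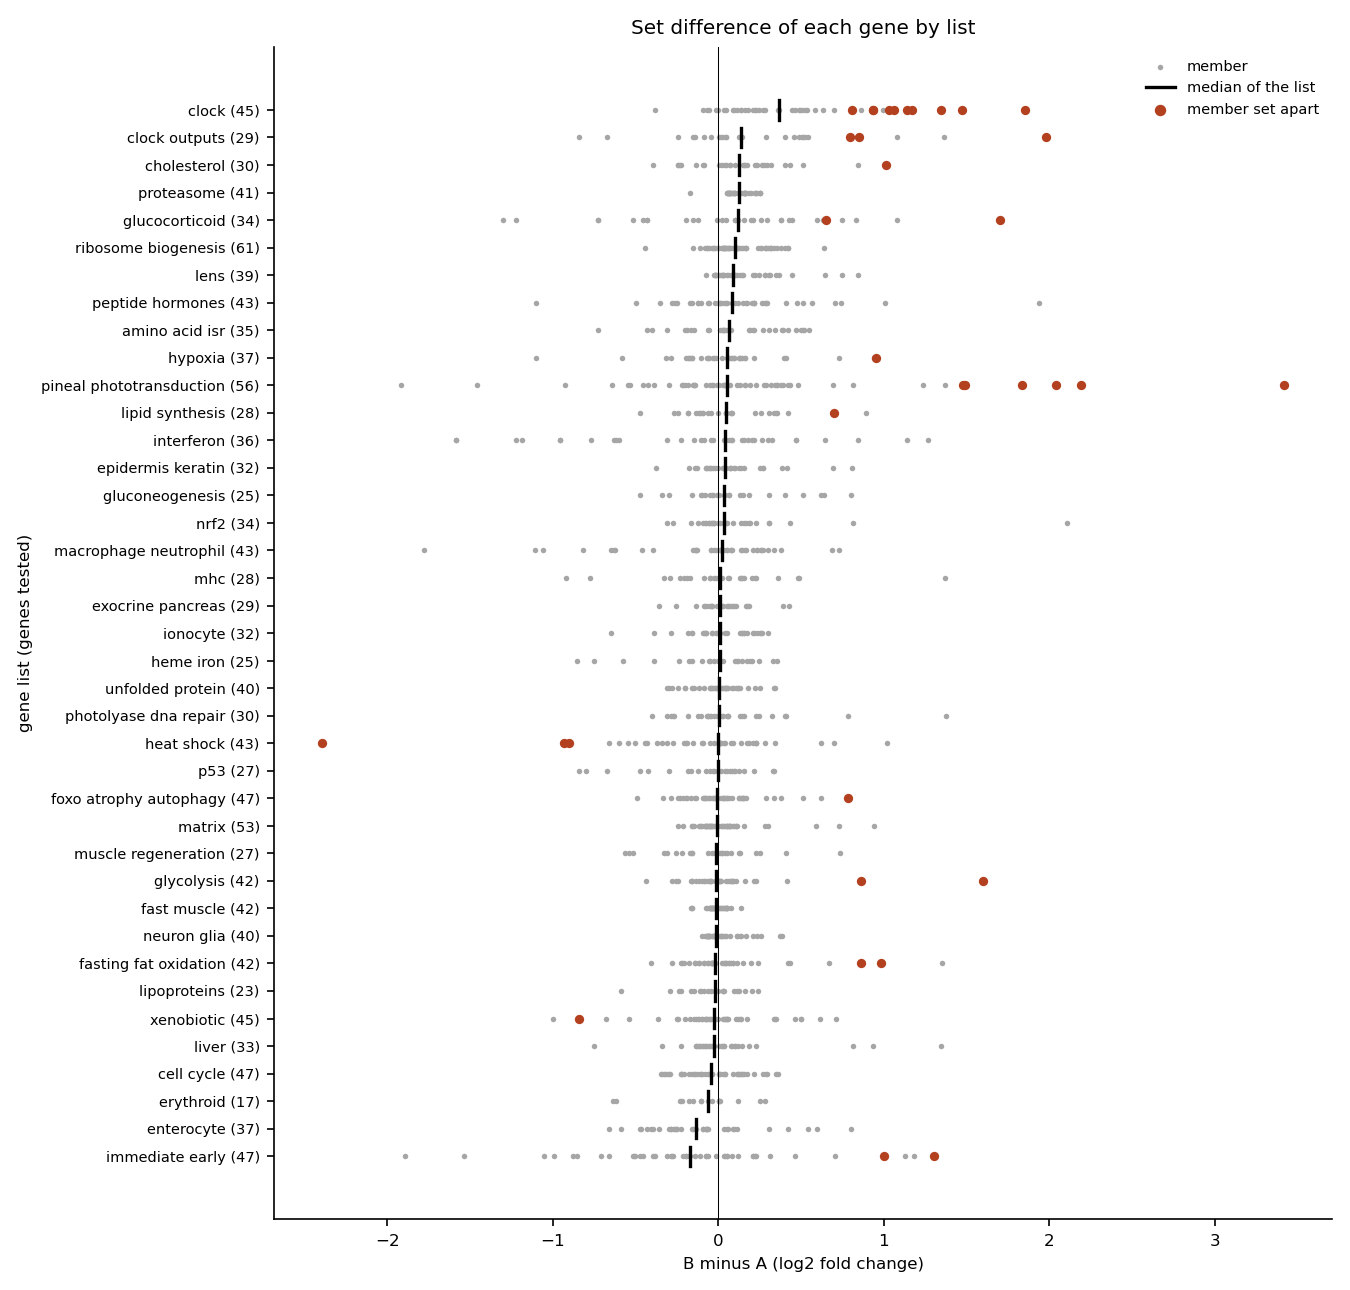
Log2 fold change of B minus A for each tested gene (points) in 39 gene lists, with the number of genes tested in parentheses, red points for genes set apart and black bars for list medians. Medians lie between -0.17 for immediate-early genes and 0.37 for the clock list, and 12 lists other than the clock hold red points.

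In 13 of the 39 lists no gene passed the thresholds in either direction, among them fast muscle (42 genes, median -0.02), liver (33 genes, -0.03), exocrine pancreas (29 genes, 0.01), neurons and glia (40 genes, -0.02) and the cell cycle (47 genes, -0.04). Since 2.29% of all genes passed, lists of this size would hold few such genes at the background share, and nothing is read from their absence. The proteasome list had a median of 0.12 with no gene past the thresholds. *HMOX1*, the haem oxygenase gene that leads the study's account of eNMES, was at 0.00 (SE 0.21) between the sets.

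The tables also gave the mean transcript length of each gene, weighted by isoform, which moves when the mix of isoforms moves. This look was added after the values were seen and carries no test. Of 12892 genes whose length varied by over 1 base, 23 (0.178%) did not overlap between the sets on the same side in both treatments, 14 longer in B and 9 shorter, and 1 gene did so on opposite sides. Of these 23 genes 3 were also set apart in counts. The splicing factor genes *SRSF5* and *srsf5a* led in opposite directions. For *SRSF5* the mean length was 1384 to 1492 bases in A and 1639 to 1885 in B, a log2 difference in length of 0.27, while its counts differed by -0.08 (SE 0.07). For *srsf5a* it was 2005 to 2108 bases in A and 1733 to 1812 in B (-0.22), with counts at 0.16 (SE 0.04). In WT siblings *SRSF5* had 1601 to 1694 bases in controls and 1455 to 1473 after eNMES, and *srsf5a* 1817 to 1892 and 2064 to 2087. *rbm4.2*, a further RNA-binding protein gene, was shorter in B (-0.22), *BMAL1* (ENSDARG00000035732) was longer (0.12) and *SERPINH1* was longer (0.19). *ccdc106b* was longer (0.26) but rests on 7.14 to 22.9 normalized counts per library.

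**Figure D5:**
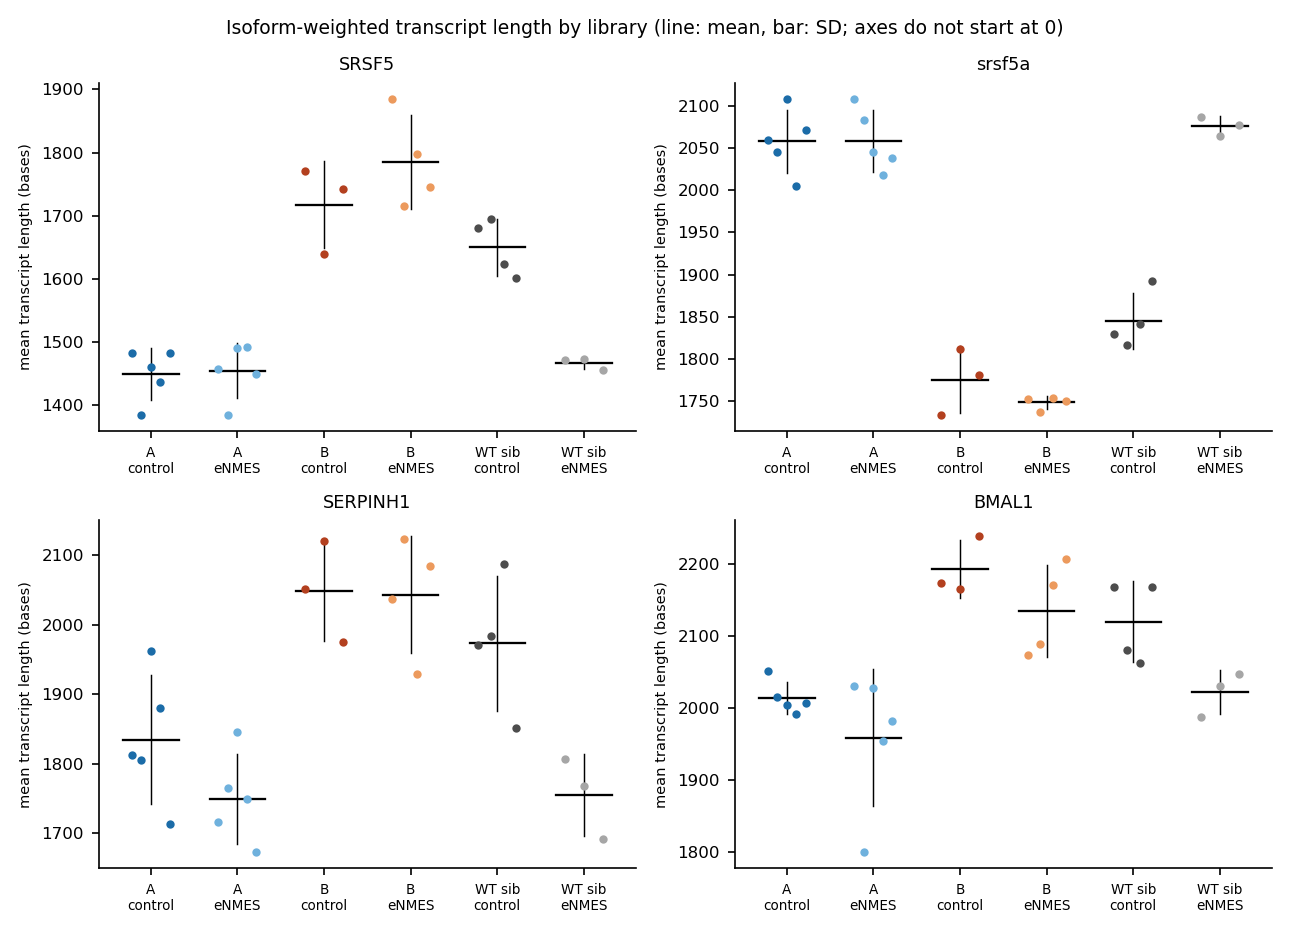
Mean transcript length in bases, weighted by isoform, in each library by set and treatment and in WT siblings (points, with means as lines and SD as bars; axes do not start at 0). *SRSF5* is longer in all B libraries (1639 to 1885) than in all A libraries (1384 to 1492), and *srsf5a* is shorter.

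The division into sets did not use the eNMES comparison, which was tested within each set. In set A, 5 eNMES libraries against 5 controls, edgeR gave 1 gene past the thresholds (0.00387%), ENSDARG00000099154, which has no symbol in the reference. It had 345.9, 341.4, 346.3, 269.4 and 277.8 normalized counts in controls and 215.9, 168.2, 209.2, 147.4 and 172.2 after eNMES, with no overlap (log2 fold change -0.79, edgeR adjusted p = 0.0154). With eNMES 3 left out no gene passed, and with any other single library left out 1 to 5 genes did. In set B it also did not overlap, with 298.0 to 318.2 in controls and 164.2 to 217.2 after eNMES, and a log2 fold change of -0.64 (adjusted p = 0.41). In WT siblings it had 237.3 to 255.4 in controls and 229.8 to 253.5 after eNMES. In set B, 4 eNMES libraries against 3 controls, edgeR gave 0 genes (0%). There were 1693 genes (6.55%) at an unadjusted p under 0.05, and the smallest adjusted p was 0.185. DESeq2 gave 38 genes in A and 19 in B. The symbol genes nearest to the threshold were *cyp2aa4*, a cytochrome P450 gene, at 1.93 (SE 0.34) in A with adjusted p = 0.197, and in B *htra4*, a serine protease gene, at -1.36 (SE 0.23) and *si:dkey-57c15.9* at 0.71 (SE 0.13), each with adjusted p = 0.185. *HMOX1* was at 0.52 in A and 0.74 in B (adjusted p = 0.84 and 0.75).

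Whether eNMES acted differently in the sets was tested by the interaction of set and eNMES in edgeR. It gave 0 of 25832 genes (0%), with 699 (2.71%) at an unadjusted p under 0.05. DESeq2 gave 0 genes as well, with 507 at an unadjusted p under 0.05, and without control replicate 4 edgeR gave 1. Each group held 3 to 5 libraries, which limits what the interaction can detect. The count of 0 therefore does not show that eNMES acted alike in both sets. *PER2* is a clock gene whose values helped to divide the libraries. Its values by treatment within a set are therefore description, and no test is read from them. In A it had 979.0, 1179, 990.7, 829.9 and 814.5 normalized counts in controls and 595.3, 573.7, 652.7, 506.8 and 510.1 after eNMES, with no overlap (-0.76, adjusted p = 0.52). With the stretch of records as a term, a step added after the data were seen, the value was -0.70 (SE 0.09). The stretches of A match its 2 clusters of clock scores, to which *PER2* itself contributes, so no p is read from that fit. In B *PER2* overlapped between treatments, at -0.24 (adjusted p = 0.9).

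The definition of a gene set apart outside the clock uses no WT sibling library. The clock component, though, was fitted over all 24 libraries, WT siblings among them. The eNMES libraries of WT siblings scored on it with set A and their controls with set B, so in them eNMES and clock gene state cannot be told apart. Of the 148 genes outside the clock list set apart higher in B, 124 were lower in WT siblings after eNMES at an adjusted p under 0.1 and 0 were higher, where 5.4% of all genes were lower. Both thresholds were passed by 1038 of all genes (4.02%). The 148 genes had a median of -1.08 on the log2 scale, and 143 had a negative sign. Of the 48 set apart lower in B, 32 were higher in WT siblings after eNMES and 0 lower, where 5.14% of all genes were higher, with a median of 0.63. *CNGA3* had 200.4 to 288.2 in controls and 7.02 to 15.1 after eNMES (-4.30, SE 0.30, adjusted p = 3.25e-09), and *GRK7* (ENSDARG00000020602) fell by 3.64 (adjusted p = 2.61e-08). *PFKFB4* fell by 2.46 (adjusted p = 0.000203) and *CPT1B* by 1.22 (adjusted p = 7.75e-06). *CPT1B* had 143.0 to 182.6 in WT sibling controls, below all B libraries. *SERPINH1* rose, with 54.1 to 83.4 in controls and 285.0 to 352.2 after eNMES (2.24, SE 0.30, adjusted p = 8.98e-05). *HSP90AA1* had 726.4 to 791.1 in controls and 847.9 to 1162 after eNMES and did not pass (0.36, adjusted p = 0.256), and neither did *zbtb16b* (-0.26, adjusted p = 0.28) nor *cyp2ad2* (0.10, adjusted p = 0.867). Across 21487 genes outside the clock list, the set difference in *dmd* mutants and the eNMES change in WT siblings had a Pearson correlation of -0.425, given as a description.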

How the data were processed

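The authors sequenced polyA RNA of whole larvae, trimmed reads with Trimmomatic, mapped them with Bowtie 1.1.2 to the Ensembl transcriptome (GRCz11) and estimated expected counts per gene with RSEM 1.2.31, per the submitters' processing notes. The deposited tables give, per library, the expected count, TPM and the transcript length of each gene, with no filter and no scaling of the counts for depth. A count is estimated where reads map to several genes, so values of near-identical copies are uncertain. The deposited TPM values enter no result. The labels name 25 libraries, and eNMES replicate 1 of the *dmd* mutants was not analysed here.

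Counts were rounded, and 25832 genes with at least 10 counts over 24 libraries were kept. Set differences come from edgeR 4.0.16 (R 4.3.3; TMM, robust quasi-likelihood fit, eNMES and set as terms) on 17 *dmd* libraries, treatment within set from 4 groups, WT siblings from 6 groups. P-values were adjusted by Benjamini-Hochberg over all genes. The biological coefficient of variation was 0.145. Standard errors come from the fold change and F statistic. They take libraries as independent, while libraries of the same stretch of records were alike in several genes. The SE of a set difference may therefore be too small. Fragment length is the transcript length minus the deposited effective length. Nothing in the labels says whether libraries came from separate clutches. The p-values measure the spread between libraries, each a separate pool of larvae, in which animal, clutch and technical differences cannot be told apart. The members, the 39 gene lists and the rule for named genes (clock genes as the values that made the sets; in the other lists the members set apart and the highest and lowest; the 12 largest non-clock genes set apart in each direction that have a symbol and average 50 or more normalized counts; genes present in one set and absent in the other, of which there were 0; the 3 with the smallest adjusted p in each direction for eNMES within a set and the interaction; and *dmd*, *hmox1a* and leading genes of the study) were chosen with earlier results of these data known, and the text uses a part of these. Genes that vary within a set, those of the lengths and genes outside the lists were chosen after their values were seen. Alternatives were DESeq2 1.42.0, its size factors, other filters and thresholds, a replicate block, each library left out, and, added after the data were seen, the stretch of records as a term. The procedures were tested on simulated data.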

Additional observations from a re-analysis of the deposited data

Results flagged for a closer look

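In groups of 4 to 10 libraries, a value was picked out where its gap to the nearest other value took up more of the group's range than Dixon's 95% limit allows, which chance does in about 1 of 20 groups. Of 381 groups of values examined (set A, set B and WT sibling controls for each named gene and library measure), 29 values were picked out.

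In set A, control 2 was high in *ARR3* (ENSDARG00000098475; 540.1, next 368.8) and *GRK7* (ENSDARG00000020602; 826.4, next 605.3), and control 1 in *il1b* (1106, next 413.6), *CEBPB* (2423, next 1282) and *si:dkey-224j12.3* (88.5). Control 3 was high in *guca1aa* (31.8), control 4 in *aanat2* (91.2) and eNMES 2 in *ldlrb* (234.3). eNMES 5 was high in *FOXO1* (ENSDARG00000099555; 1503), *SIK2* (ENSDARG00000062315; 2000) and *SAT1* (ENSDARG00000095908; 908.1) and low in *htra4* (40.9).

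In set B, eNMES 8 was low in total counts (7957000, to 4 digits), genes with at least 1 count (24160, to 4 digits) and percent of detected genes whose count is not whole (32.6). eNMES 10 was high in *dmd* (1434) and *il1b* (162.1), eNMES 9 in *ODC1* (529.8), and control 7 in *clk4a* (2225), while control 8 was low in *ULK2* (2960).

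Among WT sibling controls, replicate 4 was high in *HLF* (302.4), *nkpd1* (53.2), *SIX6* (ENSDARG00000031316; 466.5) and *CRY1* (ENSDARG00000045768; 2863) and low in *HSD17B12* (665.2), replicate 1 was high in *guca1g* (139.7) and *zmat1* (52.0), and replicate 2 in *HSP90AA1* (791.1) and *PDC* (ENSDARG00000011886; 165.9).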

How the results depend on the processing

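The count of genes set apart was 206 and stayed between 202 and 263 with any 1 library left out, and was 692 with no minimum fold change. With no minimum fold change the counts past the adjusted p were 3476 for the set difference, 1061 in controls, 1107 in eNMES libraries and 428 for set-apart genes that changed in the opposite direction in WT siblings (156 with it). Leaving out 1 library gave 521 to 651 genes for the set difference, 247 (without control 6) to 417 in controls, 240 to 412 in eNMES libraries and 133 to 198 in WT siblings. For eNMES in A it gave 0 without eNMES 3, 5 without eNMES 2 or control 5, 3 without control 4, 2 without control 2, control 3, eNMES 8 or eNMES 10, and otherwise 1. For eNMES in B it gave 0 to 1, the latter without eNMES 5 or eNMES 8, and for the interaction 0 to 1, the latter without control 4. For eNMES in A and B, DESeq2 gave 38 and 19 genes, and a fit of 24 libraries gave 3 and 1. With the stretch of records as a term, A gave 2, a count from which no test is read, since the stretches follow the clock scores. For library measures, leaving out 1 library moved the difference in fragment length between -15.9 and -7.32 bases (unadjusted exact permutation p = 0.0296, 0.00762 and 0.0321 without control 2, eNMES 7 and eNMES 9), and that in genes with at least 1 count between -159.3 and 29.7, the last without eNMES 8.

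Nothing in the labels says that replicate numbers pair these libraries. Of the *dmd* mutant pairs with the same number within a set, 4 of 6 correlated over 0.1. Best matches with their own number were 3 of 6, and 0 of 3 WT sibling pairs did either. In A each such pair also shares a stretch of records, which the check left in, so these values cannot show pairing. With the replicate block the counts were 100 for the set difference, which then rests on number 6 alone, 21 for eNMES in A and 20 in B, and *PLIN2* (-0.0795) and *IGFBP1* (-0.24) changed sign. Low counts limit *guca1aa*, *PLIN2* and the second *GRK7* copy, and spread within A limits *FKBP5*, *klf2a* and *egr4*.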
